A study of Mus musculus with 21 samples.

Results

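The genes described here encode the proteins of the cytosolic ribosome, the particle that translates messenger RNA outside mitochondria. They were taken by symbol: Rpl or Rps, a number, and at most a short suffix (a, l, l1, al or x), plus Rplp0, Rplp1, Rplp2 and Rpsa, with pseudogenes left out. The rule gave 83 protein-coding mouse genes, 31 of the small (40S) subunit and 52 of the large (60S) subunit. Of these, 76 are core genes and 7 are paralogs, second copies of a core gene. The 83 genes lie on 19 chromosomes, 14 of them on chromosome 7 and 8 on chromosome 17. The table of bone marrow cells held 82 of them among 15945 genes, that of resting and T2 (cytokine-treated) eosinophils 83 among 22274, and the table of cultured eosinophils 82 among 16645. In the second of these tables the printed symbols fit the rule for only 34 of the genes, so the genes were found there by Ensembl identifier.

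Poly(A) RNA of 21 libraries from wild-type mice was sequenced. The groups were bone marrow eosinophils (n = 3), granulocyte-monocyte progenitors (GMPs, n = 3), resting eosinophils (n = 3), eosinophils given cytokines of type 2 immunity (T2, n = 3) and bone marrow-derived eosinophils (BMDEs) grown in culture. BMDEs were untreated (control, n = 2), given the iron chelator deferoxamine (DFO, 5 µM, n = 3) or given ferric ammonium citrate (FAC, 10 µM, n = 4), an iron source. All BMDEs grew for 4 days in SCF and FLT3 ligand, each at 100 ng/mL, followed by IL-5 (10 ng/mL). The agents were given from day 4, and cells were collected for RNA on day 7. The T2 labels name IL-4 and GM-CSF with IL33, IL34 or IL35 in replicates 1, 2 and 3, which were kept as 1 group. Strain and age are not given in the sources used here. The labels attach the BMDE culture to every library, and the isolation of the other cells is not given. Whether replicates are separate animals or cultures is not stated either, so p-values measure only the spread between these libraries.

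These proteins are built around the ribosomal RNAs in fixed proportions, and the core genes are expressed together in most cells. Their messages begin with a terminal oligopyrimidine (TOP) stretch, a C followed by further pyrimidines, through which mTORC1 and the La-related protein Larp1 set how strongly they are translated and how stable they are. Eosinophils mature in the bone marrow from granulocyte progenitors, and granulocytes are known to lose much of their protein synthesis machinery as they mature.

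Start regions from RefSeq (build GRCm38.p6) were matched for 63 of the 83 genes. The stretches shown run from 40 bases before to 20 bases after an annotated start and belong to genes among those with the largest falls and to genes with rises in T2 eosinophils that had an entry. Capitals mark a C followed by at least 4 pyrimidines (C or T) on the sense strand, beginning within 10 bases of the annotated start. Where there are no capitals no such run was found there. For Rpl37a and Rps2 the GENCODE gene begins outside the stretch shown, at chr1:72711290 and chr17:24718116, and those starts were not searched for these 2 stretches.
Rpl13a, lower in T2 (chr7:45128726-45128785, minus strand): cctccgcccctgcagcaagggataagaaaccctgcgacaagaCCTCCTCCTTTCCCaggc
Rpl37a, lower in T2 (chr1:72711220-72711279, plus strand): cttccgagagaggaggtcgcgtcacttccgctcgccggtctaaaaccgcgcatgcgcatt
Rps4x, lower in T2 (chrX:102189372-102189431, minus strand): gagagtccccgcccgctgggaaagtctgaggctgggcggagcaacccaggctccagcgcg
Rpl34, lower in T2 (chr3:130730379-130730438, minus strand): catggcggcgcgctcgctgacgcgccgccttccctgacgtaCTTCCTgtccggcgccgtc
Rps2, higher in T2 (chr17:24720023-24720082, plus strand): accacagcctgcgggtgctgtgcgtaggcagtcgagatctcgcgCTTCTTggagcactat
Rpl7l1, higher in T2 (chr17:46782637-46782696, minus strand): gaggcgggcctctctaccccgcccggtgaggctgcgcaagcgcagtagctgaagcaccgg
Rpl36al, higher in T2 (chr12:69184048-69184107, minus strand): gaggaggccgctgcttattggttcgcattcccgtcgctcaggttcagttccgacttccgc

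Over all annotated starts, such a run was present for 39 of the 63 matched ribosomal protein genes (61.9%) and for 9297 of 27025 genes in the RefSeq table (34.4%). The run stood at the start shown for the core gene Rps2, which was higher in T2, and at those of Rpl13a and Rpl34, which were lower. Among members tested in T2 eosinophils, the median log2 fold change was -0.51 for the 36 with the run and -0.57 for the 24 without it. In the whole 300-base window, from 250 bases before to 50 after the start, the ETS-type motif CCGGAA was found on either strand for 34 of 63 members (54%) and 16.7% of all genes. The YY1-type motif AAGATGGC was found for 6 of 63 members (9.52%) and 3.19% of all genes. Neither motif contains the other, and a match describes letters, not a bound site.

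Total counts per library were 25857361 to 28992674 for bone marrow cells, 16073573 to 18995878 for resting and T2 eosinophils, and 16809773 to 17991870 for BMDEs. Marker genes of eosinophils and of other cell types are given beside the comparisons, as calls or as summed CPM (counts scaled to a common library total). All 12 eosinophil markers had counts in every library, as had all 12 neutrophil markers. Library 3 of the bone marrow eosinophils and FAC library 6 stood apart from their groups in the levels of ribosomal protein genes and of other short genes, and results that turn on them are also given without them. The part of cell composition in the results below was not tested, and in bulk RNA a change in the mixture of cells and a change per cell cannot be told apart.

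The share of all counts assigned to ribosomal protein genes was lower in T2 than in resting eosinophils. It was 1.24%, 1.20% and 1.35% in the 3 T2 libraries and 2.15%, 2.16% and 2.16% in the 3 resting libraries, with no overlap. In BMDEs it was 3.15%, 3.25% and 3.25% with DFO, 3.67% and 3.83% in controls, and 4.47%, 6.32%, 3.86% and 4.32% with FAC (libraries 5 to 8). Every FAC library lay above both controls and every DFO library below them, although FAC library 7 exceeded control 2 by little. In bone marrow the share was 2.10%, 3.40% and 5.61% in eosinophil libraries 1 to 3, a range that covers the GMP values of 2.67%, 2.14% and 3.06%. Tables were made separately, so shares were compared only within a table.

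**Figure D1:**
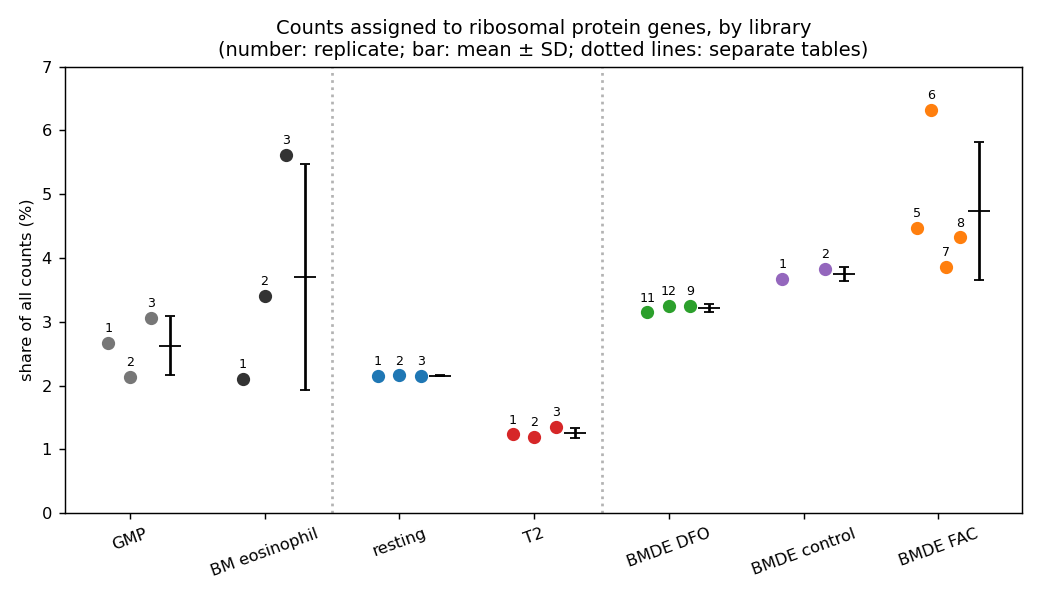
Share of all counts assigned to ribosomal protein genes (%, vertical axis) in each library, by group; numbers give the replicate, bars the mean ± SD, and dotted lines separate the 3 tables. The T2 points lie at 1.20% to 1.35%, below the resting points at 2.15% to 2.16%, and FAC library 6 stands at 6.32%.

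T2 eosinophils had lower levels of nearly the whole set than resting eosinophils. Of 80 genes tested, 74 fell and 4 rose, and 2 did not pass the test (edgeR's quasi-likelihood test, adjusted p under 0.05 over 11345 genes). Of all genes tested, 37.9% were called lower and 38.2% higher. The median log2 fold change was -0.53 for the ribosomal protein genes and -0.01 for all genes. In 73 of the 80 genes every T2 library was below every resting library, which held for 39.0% of all genes, and in 4 every T2 library was above (38.8%). The change was moderate for most members, and 5 of the 78 called changed at least 2-fold. The other 885 genes with transcripts under 1000 bases had a median of 0.04, with 37.4% called higher and 31.6% lower. The counts of falls stayed between 72 and 75 under every alternative setting tried, while 26.5% to 43.4% of all genes were called lower. Marker genes moved as well. The eosinophil markers summed to 7885 to 8230 CPM in resting and 6488 to 6594 CPM in T2 libraries, with 8 of 12 called lower and 3 higher. The neutrophil markers summed to 2484 to 2708 CPM and 1275 to 1332 CPM, with 7 of 12 called lower and 2 higher. Of the erythroid markers 5 of 5 tested were called lower, with sums of 102 to 114 and 72.4 to 81.8 CPM. Some other lists had higher sums in T2. Monocyte and macrophage markers summed to 795 to 819 and 996 to 1045 CPM, with 3 called higher and 5 lower of 11 tested. Mast cell and basophil markers summed to 27.2 to 30.4 and 45.5 to 48.8 CPM, with 2 higher and 4 lower of 7 tested. T and NK cell markers summed to 29.1 to 35.1 and 38.7 to 43 CPM. The part of any of these lists in the fall was not tested.

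Among the proteins of the small subunit, 29 of 30 core genes fell and 1 rose, with a median of -0.66. Among those of the large subunit, 44 of 46 core genes fell and 1 rose, with a median of -0.52. Among the largest falls was that of Rps27a (chr11:29545846-29548109), a small subunit protein made as a fusion with ubiquitin. Its level was 500, 491 and 545 CPM in the resting libraries and 228, 226 and 256 CPM in the T2 libraries. The groups were far apart, and the log2 fold change was -1.11 (SE 0.055, adjusted p = 2.62e-11).

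Rpl13a (chr7:45125558-45128761), known also from an interferon-driven complex that silences translation, was at 454, 435 and 438 CPM in resting and 208, 207 and 225 CPM in T2 libraries. Its log2 fold change was -1.05 (SE 0.045). Rpl37a, Rps4x and Rpl34, whose start regions are printed above, had log2 fold changes of -0.95, -0.90 and -0.85. Counts of Rpl13a and Rpl36al may hold reads of an overlapping same-strand gene model. Rps27a and Rpl5, and among genes named below Rpl12, Rpl22l1, Rpl23a, Rpl32 and Rpl35, overlap a gene on the opposite strand. Because the strand setting of the counting is not given in the sources used here, those reads cannot be told apart.

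By functional site, most lists fell throughout and the pair at the messenger RNA entry was split. The stalk that recruits elongation factors (Rplp0, Rplp1, Rplp2 and Rpl12) fell in 4 of 4 genes, with a median of -0.36. Rplp0, its base, was at 866, 849 and 810 CPM in resting and 540, 528 and 570 CPM in T2 libraries, with a log2 fold change of -0.62 (SE 0.043). Rpl5 and Rpl11, which with 5S ribosomal RNA can bind Mdm2 and stabilise p53, both fell, with log2 fold changes of -0.49 and -0.30. The genes of the 3 proteins that line the peptide tunnel fell, with a median of -0.85, as did those of the 5 around its exit, with a median of -0.55. Genes of proteins at the exit site of messenger RNA fell in 4 of 4, with a median of -0.76, while of the 2 at its entry 1 rose (0.58) and 1 fell (-0.69). All 11 tested genes known from Diamond-Blackfan anaemia, an inherited failure of red cell production, fell, with a median of -0.49. Among them Rps19, the gene most often mutated in that disease, was at 93.9, 93.6 and 94.2 CPM in resting and 61.4, 62.9 and 71.8 CPM in T2 libraries.

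Rpsa, the small subunit protein also known as a laminin receptor, fell by 0.18 on the log2 scale (SE 0.046, adjusted p = 0.0022), from 487 ± 17.4 to 430 ± 20.7 CPM (SD, n = 3). Rps6, the substrate of the S6 kinases, had one of -0.52 (SE 0.043). Per length, the highest members in this table were Rps24, Rpl23a and Rps9. Their log2 fold changes were -0.59, -0.82 and -0.84, and all 3 fell.

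**Figure D2:**
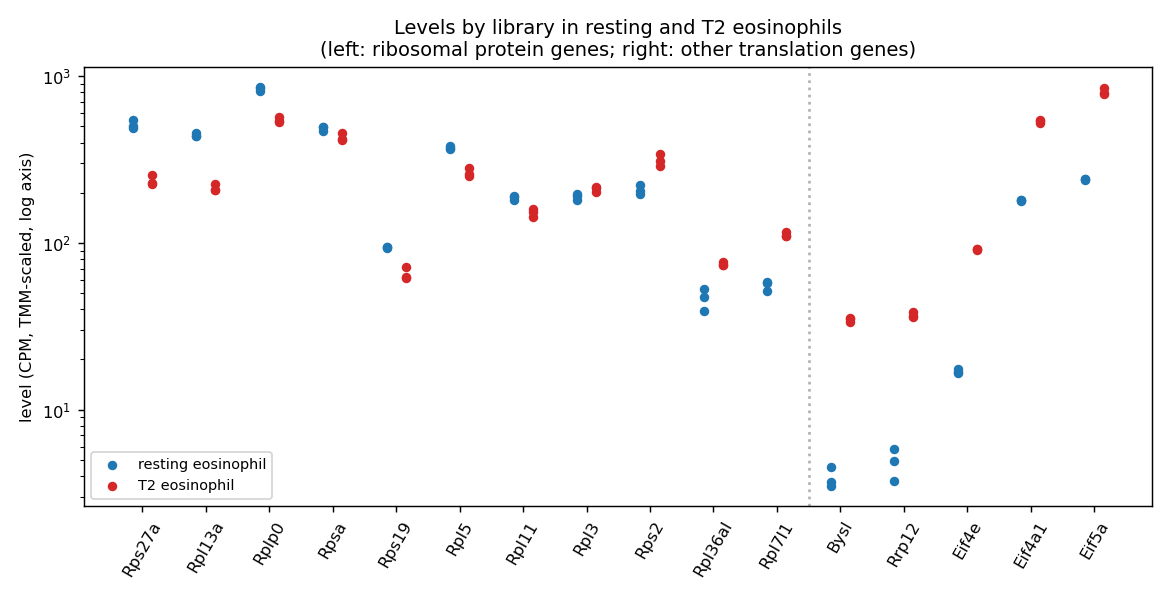
Levels by library (CPM scaled by TMM factors, log axis) in resting (blue) and T2 (red) eosinophils for 11 ribosomal protein genes and, right of the dotted line, 5 other genes of translation and ribosome assembly. Rps27a lies at 491 to 545 CPM in resting and 226 to 256 CPM in T2 libraries, whereas Bysl lies at 3.48 to 4.55 and 33.5 to 35.6 CPM.

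The 4 rises were those of Rpl7l1, Rpl36al, Rps2 and Rpl3. Rps2, a small subunit protein at the entry of the messenger RNA channel, was at 224, 205 and 196 CPM in resting and 309, 288 and 340 CPM in T2 libraries, which gave 0.58 on the log2 scale (SE 0.061, adjusted p = 2.93e-07). Rpl3, which reaches towards the peptidyl transferase centre, was at 191, 196 and 182 CPM against 213, 203 and 217 CPM. Its log2 fold change of 0.15 (SE 0.047) was called, but with upper-quartile scaling its adjusted p was 0.506, and with length and GC offsets (terms in the fit for transcript length and GC content) the log2 fold change was -0.0019. The 2 members not called were Rpl7a at -0.07 and Rps27l at 0.19, and Rps27l was called higher when the filter on low counts was left out.

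For 2 pairs of genes the paralog rose while its core gene fell. Rpl7, a large subunit protein, was at 588, 598 and 597 CPM in resting and 322, 317 and 335 CPM in T2 libraries, and its log2 fold change was -0.87 (SE 0.040). Its paralog Rpl7l1 (chr17:46773907-46782672) was at 51.7, 58.4 and 57.3 CPM against 110, 110 and 116 CPM. The log2 fold change was 1.00, with an SE of 0.057 (adjusted p = 1.59e-10). The ratio of Rpl7l1 to Rpl7 counts, not per length, was therefore 0.088 to 0.098 in resting and 0.34 to 0.35 in T2 libraries.

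Rpl36a fell, with a log2 fold change of -0.37 (SE 0.071), while its autosomal copy Rpl36al (chr12:69182731-69184083) rose by 0.69 (SE 0.082). Rpl36al was at 39.1, 47.3 and 52.9 CPM in resting and 73.3, 74.1 and 77.1 CPM in T2 libraries. Rpl22l1 was low, at 8.92 ± 1.20 CPM in resting and 6.54 ± 2.17 CPM in T2 libraries (SD, n = 3), and overlapped between groups. It was called lower at an adjusted p of 0.0461, which became 0.0503, 0.0560 and 0.178 without resting library 1, 2 or 3 and 0.109 and 0.264 without T2 library 1 or 2. Rpl3l, known from striated muscle, had 4 to 12 counts in a library, Rpl39l at most 7, and Rpl10l, known from testis, had 0 in all 6, and none of them passed the filter on low counts. Reads of Rpl10 are uncertain here, since the near-identical pseudogene Rpl10-ps3 held 42.5% to 46.9% of their joint counts in resting and 35.0% to 37.9% in T2 libraries.

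**Figure D3:**
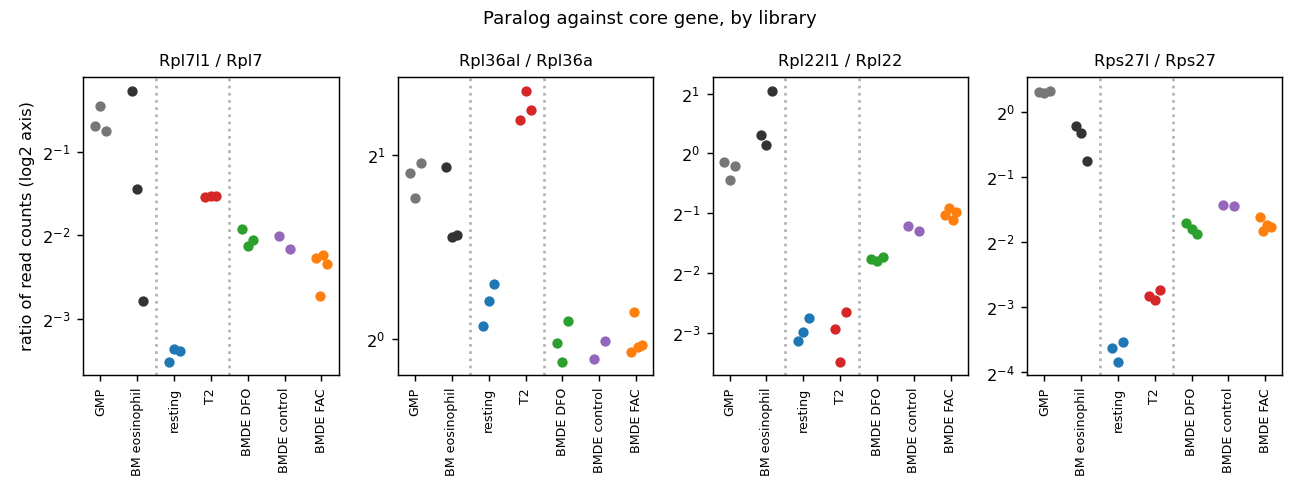
Ratio of the read counts of a paralog to those of its core gene (log2 axis, not per length) in each library, for 4 pairs, with dotted lines between tables. The Rpl7l1 to Rpl7 ratio is 0.088 to 0.098 in resting and 0.34 to 0.35 in T2 libraries, and the Rpl22l1 to Rpl22 ratio is 0.29 to 0.30 with DFO and 0.46 to 0.53 with FAC.

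The RNA levels of genes that build ribosomes went the other way from those of the ribosomal protein genes. Of 29 ribosome biogenesis genes, 28 rose in T2 eosinophils and 0 fell, against 38.2% and 37.9% of all genes. Their median was 1.21, and Polr1c was not called. Bysl, needed for maturation of the small subunit, was at 3.48, 4.55 and 3.70 CPM in resting and 35.6, 35.1 and 33.5 CPM in T2 libraries, a log2 fold change of 3.14 (SE 0.10). Rrp12, which takes part in export of pre-ribosomes, had a log2 fold change of 2.94 (SE 0.11). Of 28 initiation factors 22 rose and 6 fell, with a median of 0.56, and Eif4e, the cap-binding protein, went from 16.7, 16.6 and 17.5 CPM to 90.7, 91.6 and 92.4 CPM. The helicase Eif4a1 rose as well, with a log2 fold change of 1.58 (SE 0.041).

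Other lists were mixed. Of 7 genes listed as elongation factors, some by name only, 3 rose and 4 fell, with Eef1e1 at 2.48 and Eif5a at 1.75 as the largest changes. The 4 ribosomal proteins whose symbols lie outside the rule (Fau, Rack1 and Rps3a1 among them) all fell, with a median of -0.59. Other known TOP messages rose in 2 and fell in 3 of 7, with Hnrnpa1 at 0.86 and Tpt1 at -0.80. Of 16 genes of mTORC1 and TOP control 8 rose and 7 fell, the largest changes being those of Pdcd4, an inhibitor of Eif4a1, at -2.65, and Eef2k, the kinase that inhibits elongation factor 2, at -1.72. Of 8 tested p53 targets 5 rose and 2 fell, and those 2, Trp53inp1 at -3.35 and Bbc3 at -2.56, had the largest changes.

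**Figure D4:**
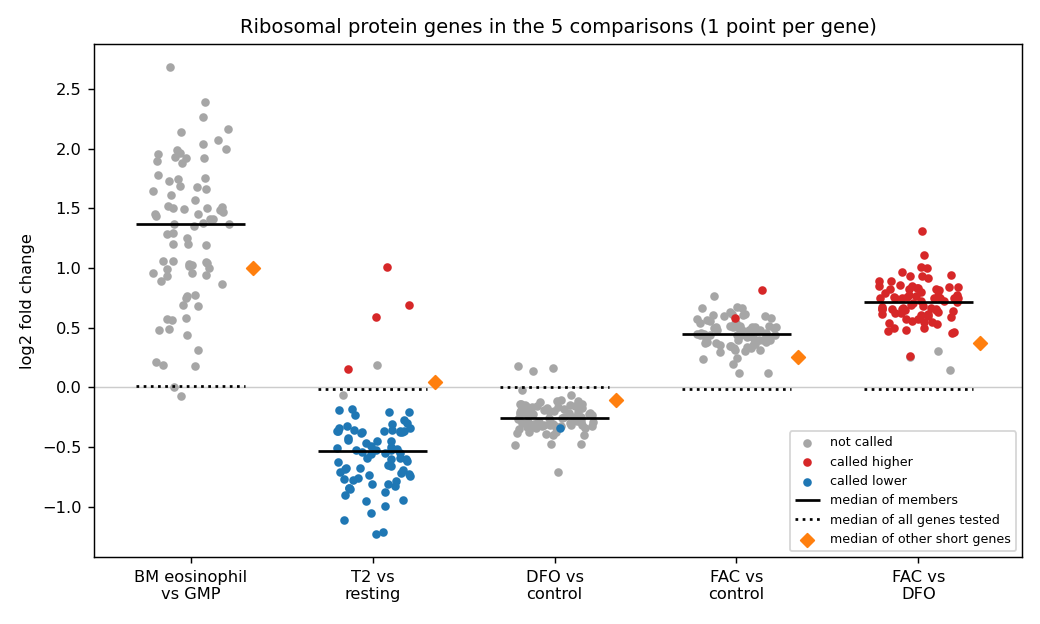
log2 fold change (vertical axis) of each tested ribosomal protein gene, 1 point per gene, in the 5 comparisons; red and blue mark genes called higher and lower at an adjusted p under 0.05, solid bars the median of members, dotted bars the median of all genes tested, and diamonds the median of other genes with transcripts under 1000 bases. Members lie around -0.53 in T2 against resting and around 0.71 in FAC against DFO, and the diamond is at 0.04 and 0.37.

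In cultured eosinophils the set was higher with FAC than with DFO. Of 81 genes tested 77 rose and 0 fell, against 23.5% of all 12607 genes called higher and 24.8% called lower. The median log2 fold change was 0.71, against -0.01 for all genes. All 46 core genes of the large subunit rose (median 0.66) and 28 of 30 of the small subunit (median 0.75). In 78 genes every FAC library was above every DFO library, which held for 26.8% of all genes. Leaving out 1 library at a time gave 52 to 79 rises, while 15.4% to 31.9% of all genes were called higher. Without FAC library 6 there were 78 (31.9% of all genes), at a median of 0.52. Marker lists moved too. All 12 eosinophil markers were called higher with FAC, with sums of 18880 to 22290 CPM with DFO, 42960 to 43910 in controls and 58350 to 70680 with FAC. Of the neutrophil markers 11 of 12 were called lower, with sums of 16850 to 18920 CPM, 9208 to 11020 and 6501 to 9378 in the same order. Dendritic cell markers were called lower in 10 of 11 (3766 to 3949 CPM with DFO, 1387 to 2745 with FAC), progenitor markers in 8 of 9 and megakaryocyte markers in 5 of 7. The part of these lists in the result was not tested.

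Short genes moved in the same direction. The 962 other genes with transcripts under 1000 bases had a median of 0.37 in FAC against DFO, and 40.7% of them were called higher and 11% lower. With offsets for length and GC content 77 ribosomal protein genes were called higher and 1 lower, against 32.2% and 23.3% of all genes. The members' median dropped from 0.71 to 0.38, while that of all genes was 0.05. The gene called lower with the offsets was Rps27, at -0.15 (adjusted p = 0.0241). Across the 81 members the log2 fold change was weakly related to transcript length (Spearman's rho -0.28), a description over genes that share the same libraries. The part of transcript length was otherwise not tested.

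Rpl22l1, a paralog of Rpl22 that overlaps a gene model on the opposite strand, had the largest rise. It was at 34.7, 34.4 and 36.4 CPM in DFO libraries 11, 12 and 9, at 58.2 and 57.1 CPM in controls, and at 78.5, 133, 58.6 and 79.3 CPM in FAC libraries 5 to 8. The log2 fold change of FAC against DFO was 1.31 (SE 0.24, adjusted p = 0.00178). Its core gene Rpl22 had a smaller one of 0.53 (SE 0.19, adjusted p = 0.0451). The Rpl22 call was lost with upper-quartile scaling, in the fit of only these 2 arms, and without any one of the 3 DFO or 2 control libraries or FAC library 5 or 8, with adjusted p of up to 0.118. The ratio of Rpl22l1 to Rpl22 counts was 0.29 to 0.30 with DFO, 0.41 to 0.43 in controls and 0.46 to 0.53 with FAC, without overlap.

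Rpl38, a large subunit protein whose loss in mice alters the translation of Hox messages, was at 109, 116 and 113 CPM with DFO and 217, 397, 164 and 193 CPM with FAC, which gave 1.11 on the log2 scale (SE 0.27, adjusted p = 0.00795). Rpl35a, a Diamond-Blackfan anaemia gene, was at 195, 182 and 193 CPM with DFO and 305, 643, 269 and 312 CPM with FAC, a log2 fold change of 1.01 (SE 0.27). Its adjusted p was 0.0138, and 0.0534 without DFO library 12. In both genes FAC library 6 was far above the other 3 FAC libraries, which themselves lay above all DFO libraries. Without it the log2 fold changes were 0.78 for Rpl38 and 0.65 for Rpl35a, and 1.05 for Rpl22l1 and 0.32 for Rpl22, and all 4 were called.

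Rplp1 of the stalk was at 292, 287 and 293 CPM with DFO and 483, 988, 383 and 470 CPM with FAC, a log2 fold change of 1.00 (SE 0.28). Its adjusted p was 0.0169, and 0.0572, 0.0583 and 0.0531 without DFO library 11, 12 or 9, and without FAC library 6 its log2 fold change was 0.63 (adjusted p = 1.35e-06). Rplp0 rose by 0.66 (SE 0.18) on the log2 scale, at an adjusted p of 0.0150, or 0.0605 without DFO library 11, and all 4 stalk genes were called, with a median of 0.83. Rpl5 and Rpl11 had log2 fold changes of 0.61 (SE 0.090) and 0.64 (SE 0.13), Rps19 of 0.82 (SE 0.17) and Rpsa of 0.80 (SE 0.21), and all 4 rose. Of the 11 Diamond-Blackfan genes 10 rose, with a median of 0.75.

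The 4 members not called were Rpl3l, Rps27, Rps27l and Rps29. Rps27, among the 3 highest members per length in this table with Rpl41 and Rpl38, was at 213, 232 and 234 CPM with DFO, 190 and 211 CPM in controls and 245, 376, 215 and 245 CPM with FAC. Its paralog Rps27l, a known p53 target, was at 65.2 ± 1.47 CPM with DFO (SD, n = 3) and 80.6 ± 17.9 CPM with FAC (SD, n = 4), and FAC library 7 lay within the DFO range. Without FAC library 6 their log2 fold changes of 0.26 and 0.31 dropped to 0.07 and 0.16. Rpl7l1 and its core gene Rpl7 both rose here, by 0.26 (SE 0.081) and 0.65 (SE 0.17), but the Rpl7l1 call was lost without any one DFO library (adjusted p 0.0552, 0.103 and 0.0628 without libraries 11, 12 and 9). Rpl36a and Rpl36al rose by 0.89 (SE 0.19) and 0.93 (SE 0.24).

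Several lists of other translation genes rose with the set in FAC against DFO, where 23.5% of all genes were called higher and 24.8% lower. All 7 genes listed as elongation factors and all 4 ribosomal proteins outside the rule rose, with medians of 0.57 and 0.72. Initiation factors rose in 21 and fell in 1 of 28. Ribosome biogenesis genes rose in 14 of 29, with a median of 0.21. This count was 8 and 7 without DFO library 11 or 12 (15.4% and 16% of all genes) and 23 without FAC library 6 (31.9%). Genes of mTORC1 and TOP control did not rise as a list, with 4 rises and 2 falls among 16 and a median of -0.03. Naca, which binds nascent chains and has a TOP message, had a log2 fold change of 0.70 (SE 0.16). Pdcd4 fell, with 59.6, 60.4 and 56.2 CPM with DFO and 36.1, 38.7, 37.6 and 36.8 CPM with FAC.

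**Figure D5:**
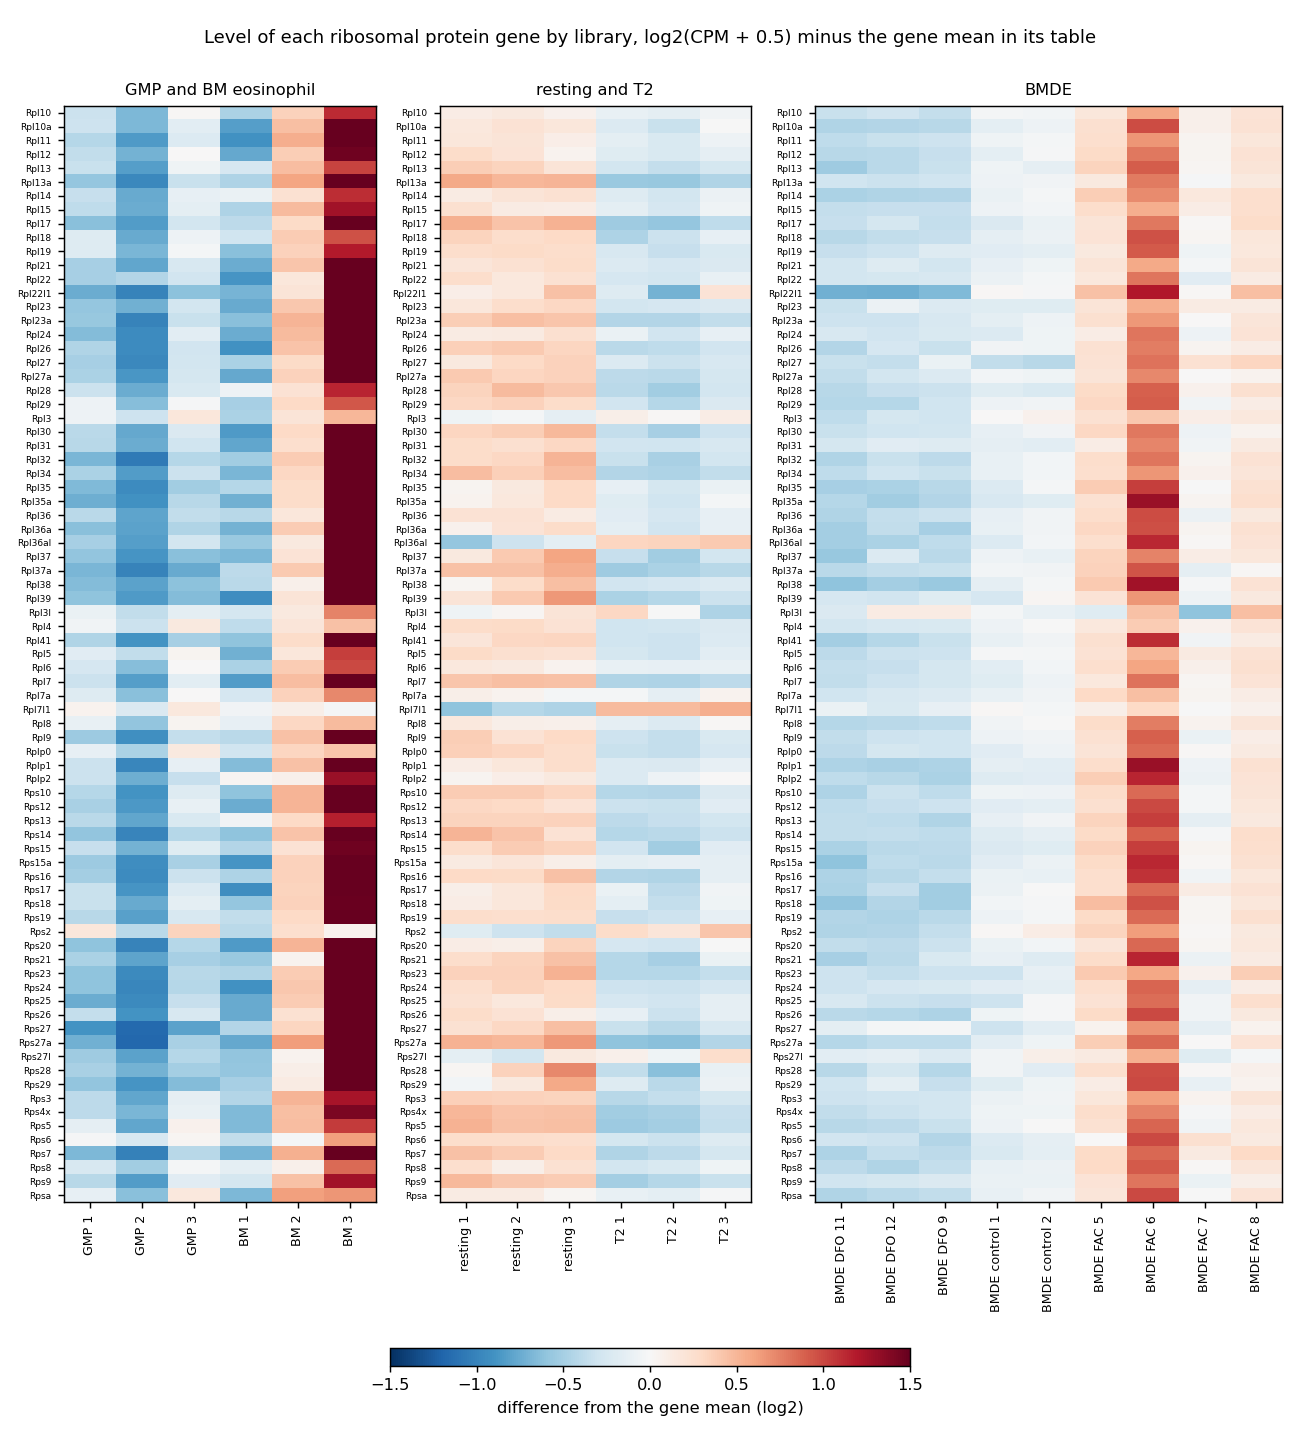
Level of each ribosomal protein gene by library, as log2(CPM + 0.5) minus the mean of that gene in its table (colour scale in log2 units, limited at -1.5 and 1.5); genes at or under 0.5 CPM in every library, and 2 further members, are not drawn. Bone marrow eosinophil library 3 and FAC library 6 are high for most genes, and resting libraries are above T2 libraries for all but a few.

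Controls lay between the treated cultures. In 62 of 81 genes tested every DFO library was below both controls and every FAC library above both, an order that 11.6% of all genes had. DFO, FAC and control are 1 set of libraries, so these comparisons share samples. Against controls, DFO had a negative log2 fold change in 78 of 81 genes, with a median of -0.26, and in 74 every DFO library was below both controls (32.9% of all genes), while in Rps27 and Rpl27 every one was above (32.8%). FAC had a positive one in all 81, with a median of 0.45, and in 65 every FAC library was above both controls (17.1% of all genes).

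Few of these differences passed the test. For DFO against control 6 members had an unadjusted p under 0.05 in edgeR, and DESeq2 called 2 lower (6.87% of all genes). After adjustment edgeR called 1 gene lower and 0 higher, against 5.12% and 6.46% of all genes. The gene was Rpl3, at 689, 749 and 733 CPM with DFO and 901 and 937 CPM in controls, a difference of -0.34 on the log2 scale (SE 0.096, adjusted p = 0.0488). For FAC against control DESeq2 called 9 genes higher (4.36% of all genes). There edgeR called 2 genes higher and 0 lower, against 1.76% and 4.28% of all genes. They were Rpl27, at 213 and 207 CPM in controls and 320, 485, 324 and 347 CPM with FAC (log2 fold change 0.81, SE 0.17, adjusted p = 0.0265), and Rps23, a protein of the decoding centre, at 333 and 379 CPM against 543, 616, 431 and 532 CPM (0.58, SE 0.13, adjusted p = 0.0332). Rpl27 was not lower with DFO, at 219, 216 and 257 CPM.

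These counts changed with the libraries fitted. Without FAC library 6, 60 genes were called lower with DFO and 60 higher with FAC, each against control, and the FAC median fell to 0.25. The shares of all genes called rose as well, to 20.2% lower with DFO and 9.98% higher with FAC. In a fit of only 2 arms 75 genes were called lower with DFO (24.3% of all genes) and 0 higher with FAC (0.185%). Leaving out either control, any DFO library or FAC library 5 or 8 left 0 calls for DFO against control and 0 or 1 for FAC against control, and without FAC library 7 there were 2 and 8 (5.82% and 3.03% of all genes). With length and GC offsets 24 were lower with DFO (12.8% of all genes), and 27 were higher with FAC (7.35%) at a median of 0.22. Lists of other translation genes changed in the same way with the libraries. Initiation factors were called lower with DFO in 5 of 28, and in 23 without FAC library 6. They were called lower in 0 without either control or any one DFO library (at most 2.39% of all genes). Ribosome biogenesis genes were called lower with DFO in 2 of 29 (Nob1 at -0.44 and Myc at -0.43) and in 25 without FAC library 6. Pdcd4 was higher with DFO, at 0.30 (SE 0.074), and lower with FAC, at -0.36 (SE 0.069), each against control. The elongation factor Eef1a1, whose message is of the TOP class, rose with FAC by 0.34 (SE 0.078). The other short genes had medians of -0.11 with DFO and 0.25 with FAC, against control. With DFO 11 of 12 eosinophil markers were called lower and 0 higher, and 8 of 12 neutrophil markers higher and 1 lower. With FAC 6 eosinophil markers were called higher and 0 lower, and 4 neutrophil markers lower and 0 higher. Dendritic cell markers were called higher with DFO in 6 of 11 and lower with FAC in 5, and progenitor markers in 6 of 9 and in 4. The part of these markers was not tested.

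No ribosomal protein gene passed the test between bone marrow eosinophils and GMPs. Of 80 genes tested edgeR called 0 higher and 0 lower, against 13% and 6.78% of all genes, although 79 had a positive log2 fold change and the median was 1.37. The smallest adjusted p was 0.0737, 41 genes had an unadjusted p under 0.05, and DESeq2 called 32 higher (19% of all genes). In only 9 genes was every eosinophil library above every GMP library, which held for 23.7% of all genes, and in 0 was every one below (24.7%).

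The 3 eosinophil libraries differed from each other. Library 3 was the highest of all 6 in 78 genes, library 2 was above every GMP library in 77, and library 1 lay within the range of the GMP libraries in 56 and below it in 15. The share of all genes with these orders was not computed. Median deviations from gene means (log2 scale) were -0.57, 0.34 and 1.83 for members in libraries 1 to 3. For other short genes they were -0.09, 0.24 and 1.13. Without library 3, 5 of 80 were called higher at a median of 0.44, against 20.1% of all genes, and without library 1, 60 were, against 15.9%. Other short genes had a median of 1.00. With length and GC offsets the members' median was -0.01 and that of all genes -0.09. In that fit 0 members were called higher and 8 lower, against 12.3% and 10.4% of all genes. The neutrophil markers, all 12 called higher in eosinophils, summed to 33284, 72266 and 198210 CPM in libraries 1 to 3 and to 77.6 to 110 CPM in GMPs. The shares of counts of the 3 eosinophil libraries had the same order. All 11 tested erythroid markers (1330 to 3001 against 16 to 19.4 CPM) and all 8 tested B-cell markers (338 to 708 against 41.5 to 57.9 CPM) were called higher in eosinophils too, as were the 12 eosinophil markers (20580 to 37220 against 123 to 284 CPM). Some lists were mixed. Progenitor markers were called higher in 2 and lower in 2 of 9. They summed to 62923, 48973 and 39745 CPM in eosinophil libraries 1 to 3, falling in that order, and to 51470 to 61745 CPM in GMPs. Monocyte and macrophage markers were called higher in 7 and lower in 4 of 12, and dendritic cell markers in 4 and 2 of 10 tested. The part of any of these lists in the result was not tested.

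Rps27 had the highest log2 fold change, 2.68 (SE 0.87), with 101, 171 and 1093 CPM in eosinophils and 73.6, 61.1 and 78.3 CPM in GMPs. Rpl22l1 followed at 2.39 (SE 0.88), with 47.1, 87.7 and 565 CPM against 45.5, 38.0 and 49.9 CPM. Without library 3 the values were 0.93 for Rps27, which was then called (adjusted p = 0.0147), and 0.59 for Rpl22l1. The lowest values were those of Rps2 at -0.08 (SE 0.26) and Rpl7l1 at 0.00 (SE 0.16), with Rpl7l1 at 219, 240 and 224 CPM against 235, 195 and 252 CPM. Rps2 and Rpl7l1 were also 2 of the 4 genes that rose in T2 eosinophils, where most members fell. Rplp0, at 1420, 2185 and 2320 CPM against 1593, 1258 and 1931 CPM, overlapped between groups. Over all 6 libraries none of these 5 genes was called.

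Of 29 ribosome biogenesis genes, 12 were called lower in eosinophils and 0 higher, against 6.78% and 13% of all genes, with a median of -0.71. Polr1a, the large subunit of RNA polymerase I, was at -1.37 on the log2 scale (SE 0.29, adjusted p = 0.0199), and Dkc1, a pseudouridine synthase, one of -1.15 (SE 0.17, adjusted p = 0.0057). The biogenesis count was 5 without eosinophil library 2, where 3.45% of all genes were called lower. It was 3, 4 and 4 without GMP library 1, 2 or 3 (0.989%, 1.4% and 1.74% of all genes). Initiation factors were called higher in 1 and lower in 2 of 28, with Eif3a at -1.14 (SE 0.16). Those lower numbered 5 and 6 without eosinophil library 1 or 3 (8.31% and 16.4% of all genes) and 1 without any one GMP library. Mtor, the kinase of mTORC1, fell by 1.18 on the log2 scale (SE 0.17). The 4 ribosomal proteins outside the rule had a median of 1.39 and were not called.

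Rps6 was counted differently between tables. Per length it ranked 9 of 83 members in the T2 table, but 78 of 82 in the bone marrow table and 80 of 82 in the BMDE table. In those 2 tables the pseudogene Rps6-ps4 held 92.9% to 97.4% of the joint counts of the pair in every library. The Rps6 values in them, such as its rise of 0.75 (SE 0.22) in FAC against DFO, are therefore uncertain, and the adjusted p of that rise went from 0.0194 to 0.0550, 0.0572 and 0.0692 without DFO library 11, 12 or 9. Without FAC library 6 the rise was 0.49. Per length the highest members were Rpl32, Rpl35 and Rpl13 in the bone marrow table and Rpl41, Rps27 and Rpl38 in the BMDE table.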

How the data were processed

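Members and gene lists were chosen with earlier results of these data known. The authors deposited expected counts (estimated reads per gene) for bone marrow cells and BMDEs, read counts for resting and T2 eosinophils, and FPKM for all, per the file headers. FPKM served only to rank members per length. The submitters' processing notes name fastp 0.18.0, Bowtie2 2.2.8, HISAT2, StringTie 1.3.1, RSEM and mm10, without roles. Genes were named by identifier, with coordinates and lengths from GENCODE M21 (GRCm38). Expected counts were rounded, and each table was fitted alone in edgeR 4.0.16 (R 4.3.3) with filterByExpr, TMM factors and the quasi-likelihood test. The 3 BMDE arms formed 1 fit. P-values were adjusted by Benjamini-Hochberg over all tested genes. A gene is called at an adjusted p under 0.05. Levels are TMM-scaled CPM. The fit was tested on simulated data. Genes named were 6 reference members, the paralog pairs, the 4 largest called rises and falls (or the 2 highest and lowest where none was called), the 3 highest per length and the 2 largest called changes of each list. Some genes that this rule names are not reported here. Alternatives were other scalings, DESeq2 1.42.0, no filter, length and GC offsets, single libraries left out, a replicate block and a fit of 2 arms. Further ones, joining the offsets with leaving out eosinophil library 3 or FAC library 6, were chosen after seeing the data.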

Additional observations from a re-analysis of the deposited data

Results flagged for a closer look

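Among 26 values checked in the 4 FAC libraries (the share of counts and the levels of 25 named members), 5 had 1 library far from the other 3, by Dixon's criterion at its 95% level, which chance meets in about 1 of 20 groups. In all 5 it was FAC library 6 and the highest value: Rpsa at 3091 CPM, Rplp1 at 988 CPM, Rpl35a at 643 CPM, Rpl27 at 485 CPM and Rpl36al at 289 CPM. Library 6 was the highest of all BMDE libraries in 80 of 82 members, and other short genes were high in it as well, with a median deviation from their means of 0.58 on the log2 scale against 0.85 for the members. Why it stands apart was not tested, and the share of all genes that were highest in it was not computed.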

How the results depend on the processing

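The called counts and medians for T2 against resting eosinophils and for FAC against DFO kept their direction, while single genes that reversed are named below. Median log2 fold changes that moved were, for T2, -0.65 with upper-quartile scaling, -0.59 with length and GC offsets and -0.59 with these and the replicate block, and leaving out 1 library gave -0.56 to -0.50. For FAC against DFO they were 0.38 with the offsets and 0.35 with these and without FAC library 6, and leaving out 1 library gave 0.52 to 0.83. Both offset fits called 77 genes higher and 1 lower. Of all genes 32.2% and 23.3% were called so with the offsets, and 37.7% and 26.9% when FAC library 6 was also left out. For FAC against control the median was 0.22 with the offsets and 0.18 when FAC library 6 was also left out. The called rises numbered 9 with DESeq2 (4.36% of all genes), 27 with the offsets (7.35%) and 59 with the offsets and without FAC library 6 (17.6%). They numbered 0 in the 2-arm fit (0.185%) and 0 to 60 on leaving out 1 library (at most 9.98%). For DFO against control the falls numbered 0 with upper-quartile scaling (5.07% of all genes) or no filter (3.45%) and 2 with DESeq2 (6.87%). They numbered 24 with the offsets (12.8%), 54 with the offsets and without FAC library 6 (23.7%) and 75 in the 2-arm fit (24.3%). Leaving out 1 library gave 0 to 60 (at most 20.2%). There were 1, 1 and 2 rises in the offset, 2-arm and combined fits (11.4%, 23.7% and 19.6% of all genes).

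For bone marrow eosinophils against GMPs DESeq2 called 32 rises and leaving out 1 library gave 0 to 60, with a median of 0.44 to 1.73. The median reversed to -0.012 with the offsets (8 falls), -0.091 with offsets and replicate block (2 falls) and -0.26 with offsets and without eosinophil library 3 (10 falls). In the same 3 fits the median of all genes was -0.086, -0.16 and -0.13, and 10.4%, 6.38% and 22.1% of all genes were called lower. With the offsets single genes there reversed to -0.24 (Rplp0), -0.78 (Rps6), -0.042 (Rps19), -0.37 (Rpl3), -0.20 (Rpl7l1), -0.33 (Rpl10), -0.14 (Rpl36a), -0.21 (Rps27l) and -0.255 (Rpl13). With offsets and replicate block they were -0.25 (Rplp0), -0.78 (Rps6), -0.10 (Rps19), -0.02 (Rpl11), -0.39 (Rpl3), -0.20 (Rpl7l1), -0.33 (Rpl10), -0.16 (Rpl36a), -0.039 (Rpl36al), -0.018 (Rps4x), -0.23 (Rps27l) and -0.26 (Rpl13). Rpl7l1 was -0.077, -0.02 and -0.015 with upper-quartile scaling, DESeq2 and no filter. Leaving out 1 library gave ranges of -0.12 to 0.36 (Rps6), -0.062 to 0.77 (Rpl5), -0.046 to 0.38 (Rpl3), -0.11 to 0.077 (Rpl7l1) and -0.28 to 0.073 (Rps2), and in cultures -0.27 to 0.0059 (Rpl39, DFO against control), -0.030 to 0.23 (Rps27l, FAC against control) and -0.13 to 0.47 (Rpl3l, FAC against DFO). With the offsets Rpl3 and Rps27l reversed in T2 to -0.0019 and -0.0139, and to -0.001 and -0.0168 with the replicate block added. Rps27l reversed to -0.11 in FAC against control and -0.047 in FAC against DFO, where Rpl3l was -0.091 and Rps27 -0.15. The causes were not tested.

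Nothing in the labels says that replicate numbers pair the libraries. Deviations of same-numbered libraries correlated at 0.017, -0.035 and 0.17 in bone marrow and -0.024, -0.020 and 0.008 in the table of T2 cells. Those of differently numbered libraries ran from -0.253 to 0.211 and from -0.022 to 0.040. With 3 libraries per group these values cannot decide whether libraries were paired. The block alone gave medians of 1.01 and -0.53, with 0 and 74 falls (3.23% and 37.3% of all genes). Without the 100 most abundant other genes, shares were 5.53% (bone marrow eosinophils), 3.30% (GMPs), 2.69% (resting), 1.64% (T2), 4.63% (control), 3.90% (DFO) and 6.04% (FAC). Depth limits Rpl3l, Rpl39l and Rpl10l, whose counts were few or 0. Without the filter on low counts all 6 members with a positive log2 fold change in T2 were called higher (27.4% of all genes). Rps27l and Rpl39l were among them, Rpl39l with 0, 1 and 0 counts in resting and 7, 2 and 4 in T2 libraries.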

Other observations

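The share of ribosomal protein genes among all FPKM, which divide by transcript length, was 7.12% ± 1.81 (SD, n = 3) in bone marrow eosinophils and 7.86% ± 0.942 (SD, n = 3) in GMPs, whereas their share of counts was 3.70% ± 1.77 and 2.62% ± 0.464, so the order of the 2 group means turned with the unit while the spreads overlapped. In the other tables the order was the same in both units: 6.66% in resting and 3.66% in T2 eosinophils, and 13.4%, 11.9% and 15.4% in control, DFO and FAC cultures by FPKM.
The ratio of Rps27l to Rps27 counts, not per length, ranged over 0.594 to 0.865 in the bone marrow eosinophil libraries but 1.23 to 1.25 for GMPs, and 0.0701 to 0.0862 in resting against 0.135 to 0.150 in T2 eosinophils, without overlap in either table. The lowest bone marrow eosinophil value was that of library 3, and the 0.801 and 0.865 of libraries 2 and 1 were also below every GMP value. The transcripts have 345 (Rps27) and 537 bases (Rps27l). Across members, Spearman's rho of log2 fold change with transcript length was -0.46 in bone marrow and 0.14 in T2 against resting. The part of length in these ratios was not tested.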
